A study of Oryza sativa with 30 samples.

Results

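This account follows 5 rice genes of mitosis, 3 B-type cyclins and 2 B-type cyclin-dependent kinases, through the floral transition of the shoot apex. They were chosen by locus, as CYCB1-1 (LOC_Os01g59120, chromosome 1), CYCB2-1 (LOC_Os04g47580, chromosome 4), CYCB2-2 (LOC_Os06g51110, chromosome 6), CDKB1 (LOC_Os01g67160, chromosome 1) and CDKB2 (LOC_Os08g40170, chromosome 8), out of 55986 loci in the deposited counts. All 5 passed the filter on low counts, with 742 to 7512 counts per gene and library. Their names were found in a RefSeq gene table on the chromosome given in the locus name, CDKB1 and CDKB2 there as CDKB1-1 and CDKB2-1. The name CYCB1-1 matched more than 1 gene on chromosome 1, so this check does not settle which of them the locus is.

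B-type cyclins accumulate as a cell passes from G2 into mitosis, where they bind cyclin-dependent kinases, and their destruction lets the cell leave mitosis. CDKB kinases are a class known from plants, with transcripts that appear late in the cell cycle, unlike those of the A-type kinase. In a shoot apex these transcripts mark the scattered cells that are dividing, in the meristem and in the young leaves and stem around it. In rice, CYCB2-2 has been found to bind CDKB2.

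Shoot apices were cut out under a microscope and their RNA sequenced in Nipponbare (NB) and in Taichung 65 (T65), both temperate japonica rice. Day 0 apices came from plants kept in 16 h of light and 8 h of dark, and the others from plants moved at 6 weeks of age to 10 h of light and 14 h of dark for 4, 8 or 12 days. The 30 labelled samples correspond to 23 count libraries, because runs had been merged into 5 of them. Day and cultivar gave 8 groups, with 2 libraries for T65 day 12 and 3 for every other. Every short-day group was compared with a day 0 group of the same cultivar, so day length and the age of the plants at harvest cannot be told apart. No label states the time of day of harvest or how many plants went into a library.

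Library totals ran from 8.61 M (T65 day 12 replicate 2) to 24.9 M counts, where M is 1e+06. Reads with several alignments came to 5.76 to 6.71% of assigned reads in 7 libraries and to 9.59 to 10.9% in the other 16. All libraries of NB day 0, NB day 4 and T65 day 12 were in the set with the higher share. The homeobox meristem genes OSH1 (115 to 206 CPM) and OSH15 (84.4 to 175 CPM) were present in every library. The 6 leaf genes examined summed to 40 to 175 CPM and the 3 secondary wall genes to 42.7 to 67.7 CPM, and no gene of these lists was at 0 in a whole group. Levels are in CPM, counts per M counts of a library after TMM scaling, with group means ± SD over libraries. Changes are log2 fold changes ± standard error (SE). Gene lengths were not used, so levels are compared between groups for 1 gene and not between genes.

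In NB, 4 of the 5 mitotic genes fell after 4 short days, and all 5 rose from day 4 to day 8. CYCB2-1 stood at 127, 145 and 128 CPM in the NB day 0 libraries, at 86.9, 93 and 88.2 CPM on day 4, and at 123, 141 and 124 CPM on day 8. Every day 4 library lay below every library of day 0 and day 8. The gene fell by 0.58 ± 0.08 on the log2 scale at day 4 (adjusted p = 0.000136 by the quasi-likelihood test of edgeR, as for all adjusted p below except those of ratios).

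CYCB2-2 gave 113, 121 and 112 CPM on NB day 0, 71.2, 81.9 and 82.2 CPM on day 4, and 129, 130 and 114 CPM on day 8. This second B2-type cyclin fell by 0.56 ± 0.09 at day 4 (adjusted p = 0.000317). Its day 4 mean was 78.4 ± 6.28 CPM (SD, n = 3), again wholly below both neighbouring days.

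CYCB1-1, the B1-type cyclin, gave 164, 174 and 162 CPM on NB day 0 and 135, 120 and 134 CPM on day 4. The groups did not overlap, and the gene fell by 0.37 ± 0.08 (adjusted p = 0.00383). On day 8 its libraries reached 200, 192 and 203 CPM, above all 3 libraries of day 0.

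Of the kinases, CDKB2 gave 315.5, 319 and 323 CPM on NB day 0, 266, 235 and 269 CPM on day 4, and 358, 336 and 349 CPM on day 8. It fell by 0.31 ± 0.09 at day 4 (adjusted p = 0.013), again with no overlap between the groups. CDKB1 gave 126, 147 and 121 CPM on day 0 and 112, 98.1 and 120 CPM on day 4. Its day 4 libraries also lay below day 0, by a small margin, and the difference did not pass the test (-0.25 ± 0.10, adjusted p = 0.0945).

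In all, 4 of the 5 genes fell at NB day 4 and 0 rose, where 10.2% of the 22839 genes tested fell. All 5 had day 4 libraries entirely below day 0, as did 17.0% of the genes tested. The median change of the 5 was -0.37, against -0.01 over all genes. The 4 calls held without any 1 of the 6 libraries in turn. When only the 2 groups entered the model, 2 calls were left, those of CYCB2-1 (adjusted p = 0.0248) and CYCB2-2 (adjusted p = 0.0263). In bulk tissue, fewer cells in mitosis and less transcript in each of them cannot be told apart.

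**Figure D1:**
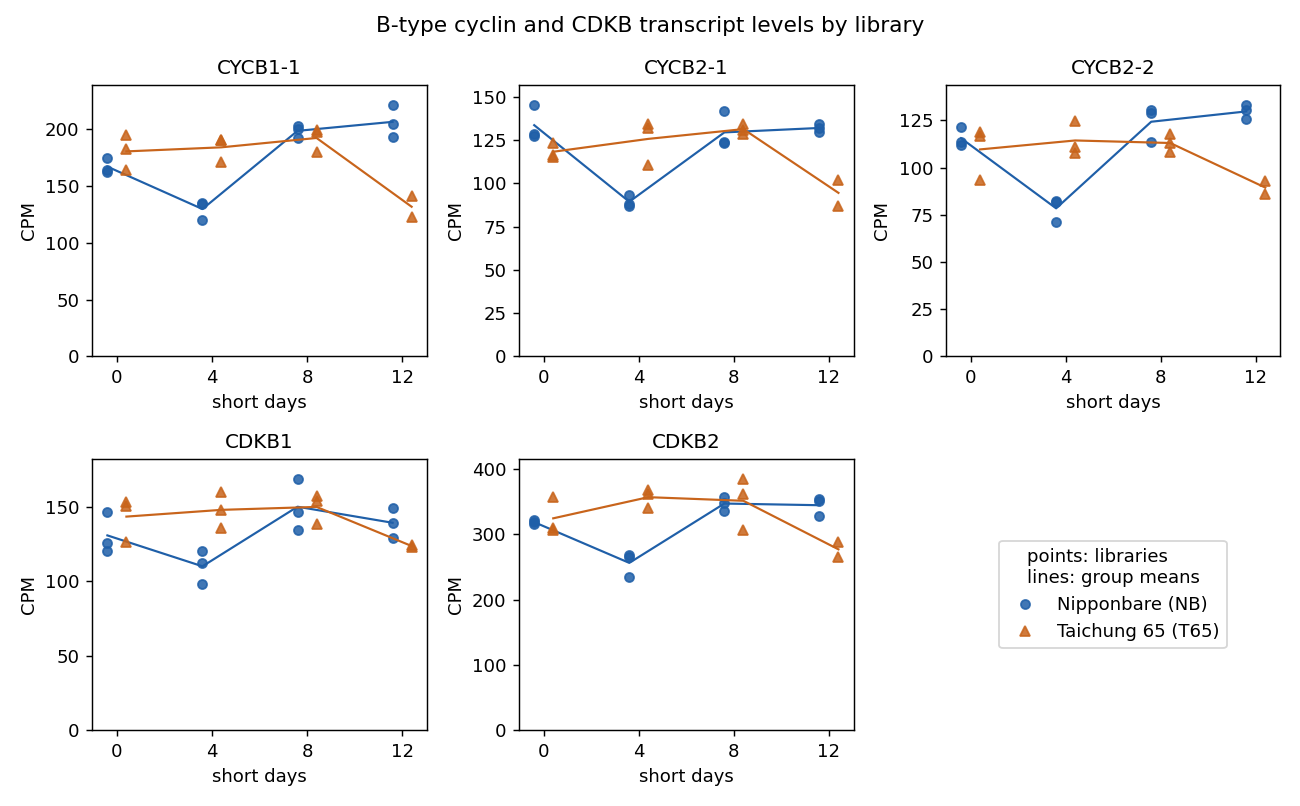
Levels of the 5 genes in CPM (vertical axes, from 0) against the number of short days, with 1 point per library and lines through the group means, NB as circles and T65 as triangles. NB is lowest on day 4 in each panel, and T65 is lowest on day 12.

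From day 4 to day 8 of NB all 5 genes rose, where 6.76% of the genes tested did. CYCB2-2 rose by 0.66 ± 0.09 (adjusted p = 0.000164), CYCB1-1 by 0.61 ± 0.08 (0.000152) and CYCB2-1 by 0.53 ± 0.08 (0.000495). CDKB1 rose by 0.45 ± 0.10 (adjusted p = 0.00794), from 110 ± 11.3 to 150 ± 17.4 CPM, and CDKB2 by 0.44 ± 0.09 (adjusted p = 0.0023). The day 8 libraries of all 5 lay above those of day 4, which 12.7% of genes did. This rise shares its day 4 libraries with the fall before it, so it is not a separate observation of those libraries. The 5 calls held without any 1 library. In the 16 libraries of the higher share 4 passed, and CDKB1 was at 0.45 (adjusted p = 0.0783). Only CYCB2-2 passed when the 2 groups alone entered the model (adjusted p = 0.0466).

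On NB day 8 none of the 5 genes passed the test against day 0, and on day 12 CYCB1-1 was higher than on day 0. The count at day 8 was 0 of 5 in edgeR (1 at an unadjusted p under 0.05, and 1 by DESeq2, CYCB1-1 in both), where 2.21% of genes passed in either direction. The 95% intervals of the log2 changes ran from -0.22 to 0.13 for CYCB2-1, from -0.09 to 0.30 for CYCB2-2 and from -0.06 to 0.30 for CDKB2. CDKB1 was at 150 ± 17.4 CPM on day 8 against 131 ± 13.9 CPM on day 0, with an interval of -0.02 to 0.42. CYCB1-1 was at 198 ± 5.42 CPM on day 8 (0.25 ± 0.08, adjusted p = 0.121), with an interval of 0.07 to 0.42 that lay above 0. On day 12 it stood at 204, 193 and 221 CPM, higher than in every day 0 library, and had risen by 0.31 ± 0.08 (adjusted p = 0.0166). It was the 1 of 5 genes that passed at day 12, where 6.38% of genes rose. Its call was lost without day 0 replicate 1, day 0 replicate 3 or day 12 replicate 3 (adjusted p up to 0.0897) and in the 16 libraries of the higher share (adjusted p = 0.158). CYCB2-1 was at 132 ± 2.25 CPM on day 12 against 134 ± 10.1 CPM on day 0 (interval -0.19 to 0.16). Between day 8 and day 12 the 5 changes lay between -0.11 and 0.06 and 0 passed (0 at an unadjusted p under 0.05, 0 by DESeq2), where 2.08% of genes did.

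In T65 none of the 5 genes passed the test at day 4, and the lowest group means came on day 12. CYCB1-1 stood at 183, 195 and 164 CPM on T65 day 0, at 190, 171 and 191 CPM on day 4, and at 199, 180 and 197 CPM on day 8. These 3 groups overlapped throughout. In the 2 libraries of day 12 CYCB1-1 was at 141 and 122 CPM, below all 9 earlier T65 libraries. It fell by 0.45 ± 0.09 against day 0 (adjusted p = 0.00785).

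CYCB2-1 in T65 went from 115, 124 and 116 CPM on day 0 and 134, 131 and 129 CPM on day 8 to 102 and 87 CPM on day 12. It fell by 0.47 ± 0.09 against day 8 (adjusted p = 0.0283), while against day 0 it missed the threshold (-0.32 ± 0.09, adjusted p = 0.0521). CYCB2-2 was at 89.4 ± 5.03 CPM on day 12 (n = 2) against 110 ± 14.2 CPM on day 0 (n = 3), a change of -0.29 ± 0.10 (adjusted p = 0.0999). CDKB2 was at 288 and 266 CPM on day 12 and at 307 to 357 CPM on day 0 (-0.23 ± 0.10, adjusted p = 0.174). CDKB1 was at 124 and 123 CPM against 127 to 153 CPM (-0.21 ± 0.12, adjusted p = 0.309).

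All 5 genes had T65 day 12 libraries below every day 0 library, as did 18.9% of genes, and 1 passed where 2.22% of genes fell. Against day 8, 2 passed where 0.285% of genes fell (CYCB1-1 by 0.54 ± 0.09, adjusted p = 0.012), and all 5 were apart, as were 15.1% of genes. These calls rested on T65 day 12 replicate 2, the shallowest library. Without it, CYCB1-1 changed by -0.35 ± 0.12 against day 0 (adjusted p = 0.213) and by -0.45 ± 0.12 against day 8 (adjusted p = 0.552), with the 1 library left assumed to vary like the other groups. CYCB2-1 was then at -0.36 ± 0.12 against day 8 (adjusted p = 0.688). Against day 8, the CYCB1-1 call was also lost without day 8 replicate 1 or replicate 3, and that of CYCB2-1 without any of the 3 day 8 libraries. In the 16 libraries of the higher share, 0 passed in either comparison, with CYCB1-1 at -0.47 and -0.59.

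For the earlier T65 days the 5 changes against day 0 lay between 0.03 and 0.14 on day 4 and between 0.04 and 0.15 on day 8. None passed on either day in edgeR (0 at an unadjusted p under 0.05 and 0 by DESeq2), where 0.149% and 1.06% of genes passed. The interval of the CYCB2-1 change on day 4 was -0.09 to 0.26 and that of CYCB2-2 was -0.13 to 0.25, so neither reached the fall seen in NB. Between T65 day 4 and day 8, 0 of the 5 passed, and 0.0% of all genes did (1544 at an unadjusted p under 0.05, 71 by DESeq2).

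**Figure D2:**
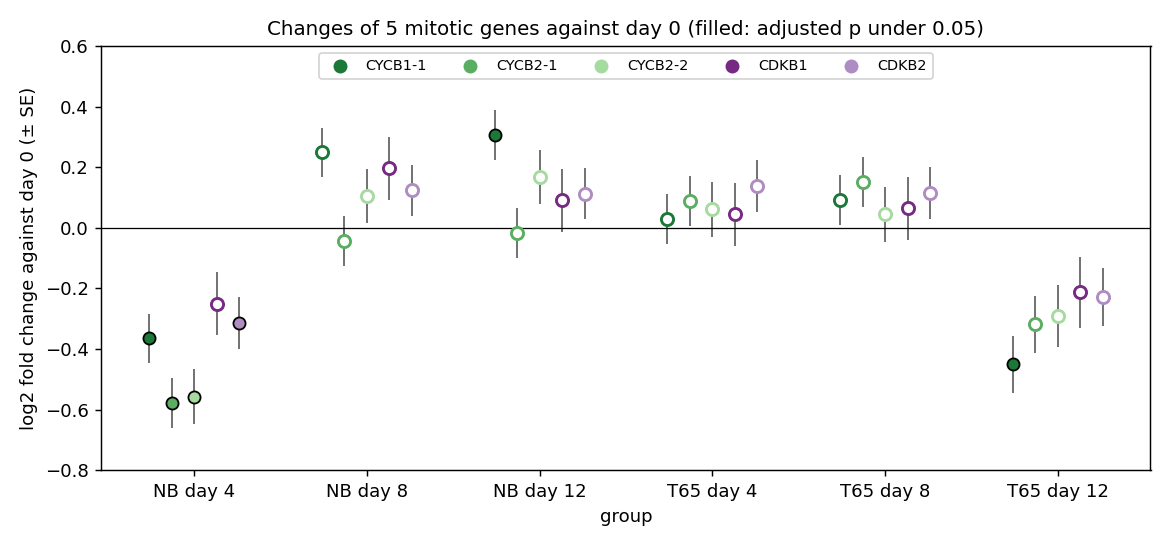
Log2 fold changes of the 5 genes against day 0 of the same cultivar (vertical axis, points with SE bars) in the 6 short-day groups, filled where the adjusted p was under 0.05. All 5 points lie below 0 at NB day 4 and at T65 day 12, and 4 and 1 of them are filled.

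The difference between the cultivars was tested directly. In the day 4 change, T65 minus NB was 0.67 ± 0.12 for CYCB2-1 (adjusted p = 0.00747) and 0.62 ± 0.13 for CYCB2-2 (adjusted p = 0.0188), so 2 of 5 passed, where 1.07% of genes were higher in this contrast. CDKB2 (0.45 ± 0.12, adjusted p = 0.0573), CYCB1-1 (0.39 ± 0.12, adjusted p = 0.0848) and CDKB1 (0.29 ± 0.15, adjusted p = 0.366) did not pass. With only the 4 groups in the model, or only the 16 libraries of the higher share, 0 passed, although CYCB2-1 was then at 0.64 and 0.65. The CYCB2-2 call was also lost without NB day 0 replicate 2, NB day 4 replicate 1, T65 day 0 replicate 3 or T65 day 4 replicate 3 (adjusted p up to 0.0721).

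In the day 12 change T65 minus NB was -0.76 ± 0.12 for CYCB1-1 (adjusted p = 0.00194) and -0.46 ± 0.14 for CYCB2-2 (adjusted p = 0.0451), 2 of 5 where 3.19% of genes were lower. CYCB1-1 kept this call without T65 day 12 replicate 2 (-0.66 ± 0.14, adjusted p = 0.0311), whereas CYCB2-2 lost it (adjusted p = 0.232) and lost it also without 7 other libraries in turn. In the 16 libraries of the higher share 0 passed (CYCB1-1 -0.73, adjusted p = 0.164). In the day 8 change 0 passed (0 at an unadjusted p under 0.05, 0 by DESeq2), where 0.00876% of genes did. Averaged over the 4 days the cultivars differed in 0 of the 5 genes (0 at an unadjusted p under 0.05, 0 by DESeq2), although 29.8% of genes differed. The intervals of this average lay within -0.15 and 0.21 for all 5. Opposite differences on single days cancel in it. CYCB1-1 was at 184 CPM in T65 and 130 CPM in NB on day 4, and at 132 and 206 CPM on day 12 (group means).

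Ordered by level over the 8 groups, NB day 4 was the lowest group and T65 day 12 the next for each of the 5 genes. These 2 groups overlapped in CYCB1-1, CYCB2-1 and CDKB2 and were apart in CYCB2-2 and CDKB1. T65 day 12 in turn lay wholly below the next group in CYCB1-1, CYCB2-1, CYCB2-2 and CDKB2 and overlapped NB day 0 in CDKB1. In CYCB2-2 the margin was very small, 92.96 CPM (T65 day 12 replicate 1) against 93.26 CPM (T65 day 0 replicate 3). Among the 6 other groups every neighbour in the order overlapped. The highest group mean was 1.65 times the lowest for CYCB2-2, 1.59 for CYCB1-1, 1.49 for CYCB2-1, 1.39 for CDKB2 and 1.36 for CDKB1.

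The ratio of 2 genes within a library does not depend on scaling. CYCB1-1 to CYCB2-1 counts stood at 1.29, 1.2 and 1.27 in NB day 0, and at 1.52, 1.46 and 1.71 in NB day 12. The means were 1.25 ± 0.0451 and 1.56 ± 0.126 (n = 3 each), with no overlap and an exact two-sided permutation p = 0.1, the smallest that 3 against 3 can give. The ratio was also above day 0 in every library of NB day 4 (1.29 to 1.55) and day 8 (1.36 to 1.64), although the lowest of these hardly exceeded the highest of day 0. In T65 it was 1.41 to 1.59 on day 0 and 1.38 and 1.41 on day 12, where the later libraries lay just below (exact two-sided permutation p = 0.2, the smallest that 2 against 3 can give). CYCB2-2 to CYCB2-1 was at 0.866 ± 0.0275 on NB day 0, 0.962 ± 0.0728 on day 8 and 0.983 ± 0.0457 on day 12 (n = 3 each), and neither later day overlapped day 0 (exact two-sided permutation p = 0.1 each). On NB day 4 and in every later T65 group it overlapped day 0. CDKB2 to CDKB1 was at 2.17 to 2.68 on NB day 0 and overlapped day 0 in every later group of both cultivars. None of the 18 ratio comparisons passed after adjustment (lowest adjusted p = 0.36, exact permutation tests). With so few libraries none could have passed at 0.05, so these tests cannot decide whether a ratio changed.

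**Figure D3:**
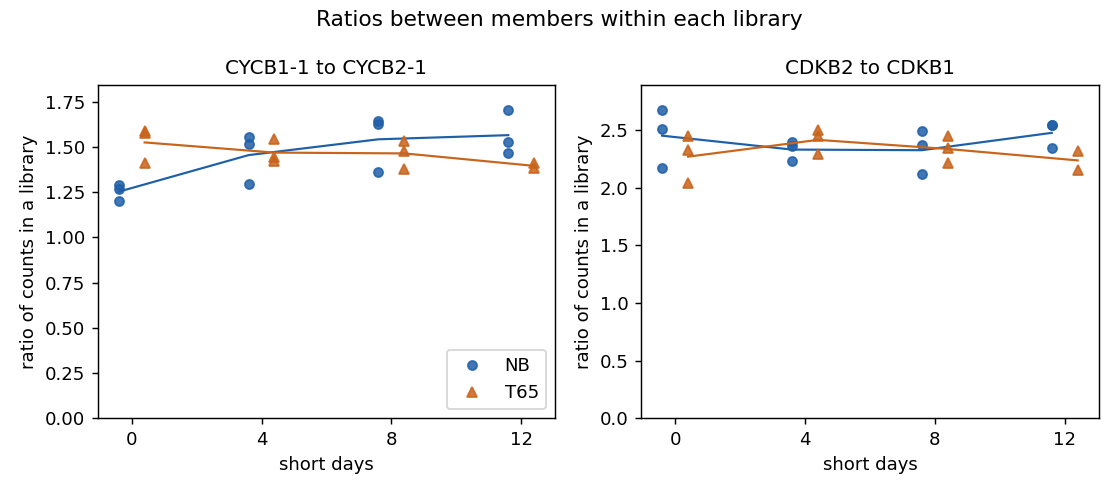
Ratio of counts of CYCB1-1 to CYCB2-1 and of CDKB2 to CDKB1 in each library (vertical axes, from 0) against short days, with lines through the group means. The cyclin ratio of the 3 NB day 0 libraries (1.2 to 1.29) lies below all other libraries, and the kinase ratio shows no such separation.

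Other cell cycle genes were examined by list. Of 11 other genes of mitosis, 6 fell and 0 rose at NB day 4 (median -0.43), where 10.2% of all genes fell. From day 4 to day 8, 5 rose and 0 fell (median 0.36), where 6.76% of all genes rose. The following falls were at NB day 4. SGO1, which protects cohesion at centromeres, fell by 0.59 ± 0.11, CYCB1-5, a further B1-type cyclin, by 0.44 ± 0.10 and CKS1, a subunit that binds cyclin-dependent kinases, by 0.43 ± 0.10. CYCA2-1, an A-type cyclin, fell by 0.47 ± 0.12. At T65 day 12, 2 of the 11 fell (median -0.32), where 2.22% of all genes did. SGO1 was among the 2 and fell by 0.49 ± 0.13. The 5 mitotic genes themselves had medians of -0.37, 0.53 and -0.29 in these 3 comparisons.

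DNA replication genes moved on the same days in NB, and in T65 were also low on day 12. All 7 of the helicase subunits MCM2 to MCM7 and the replication clamp PCNA fell at NB day 4 (median -0.77), against 10.2% of genes. All 7 rose to day 8 (median 0.72), where 6.76% of genes did. At T65 day 12 against day 0, 6 of 7 fell (median -0.62), where 2.22% of genes did. MCM4 fell by 0.84 on the log2 scale at NB day 4 and by 0.64 at T65 day 12. PCNA changed by -0.77 ± 0.15, 0.94 ± 0.15 and -0.62 ± 0.17 in the 3 comparisons in turn. Against T65 day 0, the replication medians were already -0.28 on day 4 and -0.25 on day 8. There 0 of 7 passed, against 0.149% and 1.06% of genes, and the 5 mitotic genes had medians of 0.06 and 0.09. From T65 day 8 to day 12, 0 of 7 replication genes passed (median -0.38), where 0.285% of genes fell. Of 13 G1 and S phase control genes, 4 fell and 1 rose at NB day 4, where 10.2% of all genes fell and 10.0% rose. RBR1, a retinoblastoma-related repressor, fell by 0.76 ± 0.15 and CDKA-2, an A-type kinase, by 0.30 ± 0.09, while CYCD4-1, a D-type cyclin, rose by 0.45 ± 0.12. CDKA-1 was at 0.00 ± 0.15. The medians of all genes in the 3 comparisons lay between -0.01 and 0.00, and whether any list differed from another was not tested.

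Inhibitors of cyclin-dependent kinases went in both directions. Their list also held an activator of the anaphase-promoting complex (APC/C), which is not such an inhibitor but is counted here. Of 7 tested (8 in the list), 2 rose and 1 fell at NB day 4, where 10.0% of all genes rose and 10.2% fell. EL2 rose by 1.63 ± 0.28 there, with libraries at 34.3, 76.5 and 28.2 CPM against 10.4 to 20.7 CPM on day 0, so replicate 2 was the high one. It fell by 1.40 ± 0.29 from day 4 to day 8. KRP4 rose by 0.40 ± 0.12 at NB day 4, with libraries at 97.8, 59.2 and 88.7 CPM against 58.9 to 63.6 CPM on day 0. Its replicate 2 thus lay within the day 0 range. KRP1 fell by 1.57 ± 0.46 at NB day 4 but was at low levels, 0.41 to 2.02 CPM against 2.25 to 5.59 CPM on day 0. KRP3 was at 0.51 ± 0.18 on day 4 (adjusted p = 0.0531) and had risen by 1.58 ± 0.18 on day 12, when CYCB1-1 was also higher. At T65 day 12, 0 of the 7 passed, where 1171 of the 22839 genes tested did. EL2 was nevertheless at 14.8 and 15.6 CPM there, against 7.78 to 8.14 CPM on T65 day 0. WEE1, a kinase that inhibits cyclin-dependent kinases, was at 38.0 and 42.3 CPM against 26.9 to 31.1 CPM. KRP4 also lay above day 0, KRP1 lay below at low levels, and the others tested overlapped day 0.

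**Figure D4:**
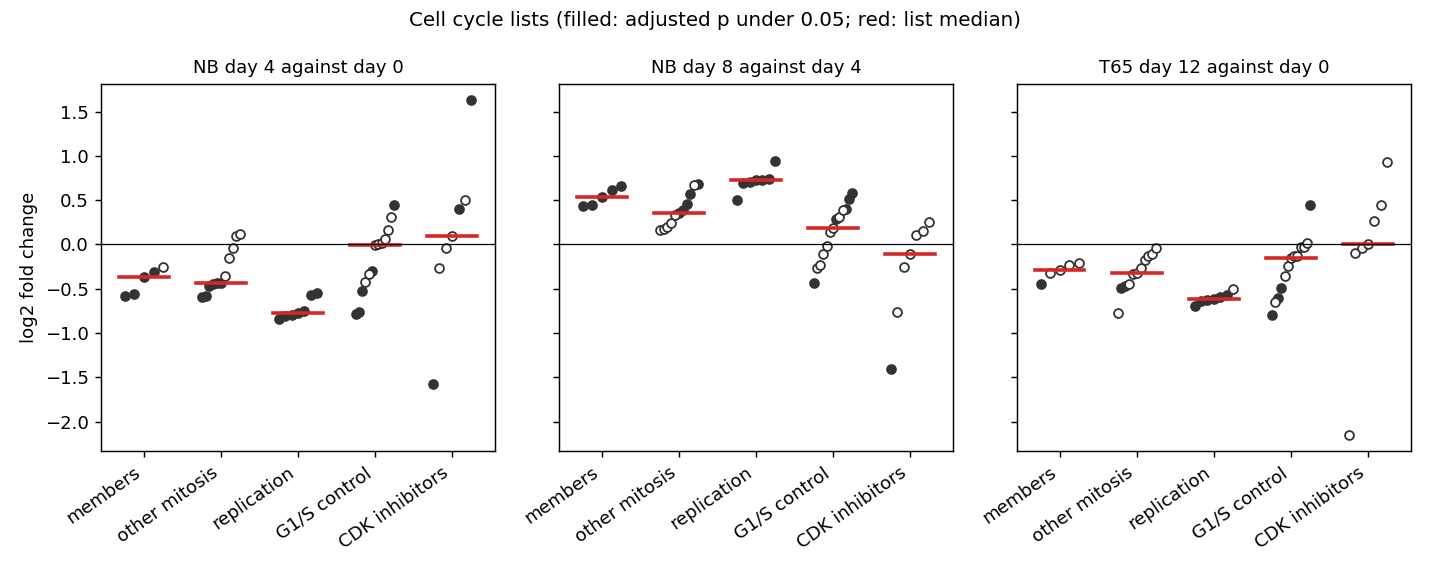
Log2 fold changes (vertical axis) of the 5 genes ("members") and of 4 lists of cell cycle genes in 3 comparisons, 1 point per gene, filled where the adjusted p was under 0.05, with list medians in red. The medians of replication (-0.77, -0.62 and 0.72) and mitosis (-0.43, -0.32 and 0.36) lie below 0 at NB day 4 and T65 day 12 and above 0 from NB day 4 to day 8. The inhibitors list, which also holds an activator of the anaphase-promoting complex, spreads to both sides.

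Other genes moved on the same days as well. HSP101, a heat shock chaperone used as a sign of handling, was at 8.29 to 12.6 CPM on NB day 0, 28.3 to 67.9 CPM on NB day 4 and 13.5 to 26.1 CPM on NB day 8. In T65 it was at 28.9 to 40.7 CPM on day 0, 33.5 to 43.8 CPM on day 8, and 130 and 142 CPM on day 12. It was thus above day 0 of the same cultivar in both groups where the mitotic genes were low. The NB day 4 libraries overlapped those of T65 day 0 and day 8. The part of HSP101 in the result was not tested. It was also at 56.5 to 80.6 CPM on T65 day 4, where 0 of the 5 mitotic genes passed. The 6 leaf genes summed to 44.6 to 46.8 CPM on NB day 0, 49.3 to 137 CPM on day 4 and 108 to 162 CPM on day 8, with 3 of 6 higher at day 4, where 10.0% of all genes rose, and also 3 of 6 at day 8, where 1.27% did. In T65 they summed to 40 to 70.5 CPM on day 0, 73.8 to 132 CPM on day 4 and 77.4 and 81.3 CPM on day 12. At T65 day 4, 0 of the 6 leaf genes passed, where 0.149% of all genes did. The 6 meristem genes summed to 363 to 490 CPM on NB day 0 and to 382 to 410 CPM on day 4, which overlapped. No meristem gene passed as lower at T65 day 12, where 2.22% of all genes fell. Yet OSH71 was at 52.8 to 55.5 CPM there, below the 72.5 to 75.4 CPM of T65 day 0. WOX4, at low levels, was also below (0.69 to 0.88 against 1.84 to 2.34 CPM). Libraries lay apart in this way in 18.9% of genes. The other meristem genes overlapped day 0. At NB day 4, 1 of 6 fell (OSH71 by 0.42 ± 0.13), where 10.2% of all genes did. On T65 day 8 the meristem genes summed to 321 to 338 CPM, below the 412 to 485 CPM of T65 day 0. There 1 of 6 fell and 0 of the 5 mitotic genes passed, where 1.06% of all genes passed.

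The genes most like the 5 in pattern were sought over the 23 libraries, as Pearson's r of log2 CPM with the mean of the 5 standardized profiles. These r are descriptions over libraries that share their group, depth and scaling. The top 5 reached r = 0.945 to 0.953, led by LOC_Os02g56540 and LOC_Os05g05470, which the files do not pair with names. Their means were 151 and 263 CPM on NB day 0, 106 and 201 CPM on NB day 4, and 121 and 212 CPM on T65 day 12. Of the 22834 other genes 68 had r over 0.9, among them PCNA (rank 44) and CYCB1-5 (rank 55). With each library taken as its deviation from its group mean, LOC_Os05g05470 (r = 0.878) and PCNA (r = 0.865) were in the top 5. Among the 5 genes, r ranged from 0.66 for CYCB2-1 with CDKB1 to 0.918 for CYCB1-1 with CDKB2 over the libraries. Within groups CYCB1-1 went most closely with CDKB1 (r = 0.785) and CDKB2 (r = 0.77), whereas CYCB2-2 with CDKB2 had r = 0.103.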

How the data were processed

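Raw counts per MSU locus were deposited by the authors, 1 file per library, with no normalization. The submitters' processing notes name HTSeq, TopHat2, Bowtie2, edgeR 3.6.4 and R 3.1.0, with no role. No source used here gives the genome build, annotation release or strand setting, so antisense and overlapping genes cannot be told apart. Reads with several alignments are listed apart from the genes, so paralogs such as CYCB2-1 and CYCB2-2 can be undercounted. Library sizes excluded the 5 summary lines. Relative to reads assigned to genes, 4.72 to 5.51% more lay outside any gene and 2.01 to 2.44% more were ambiguous.

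Groups came from the labels' cultivar and day. Nothing says that replicates came from separate plants, so p-values measure the spread between libraries, which may be technical. Libraries of a group were not duplicates (chi-square per gene 5.61 to 48.4). The pairs within NB day 4 were at 48.4, 23.3 and 28.4, while the highest pair of any other group was at 30.4 (T65 day 0).

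Differences were tested with edgeR 4.0.16 (estimateDisp, glmQLFit with the legacy method, glmQLFTest) in R 4.3.3, with TMM scaling and filterByExpr, all 8 groups in 1 model (22839 genes, 15 residual degrees of freedom, common biological coefficient of variation 12.7%). There were 14 comparisons, each adjusted by Benjamini-Hochberg over all genes tested at 0.05. The SE is the log2 fold change divided by the square root of F, and 95% intervals use the t distribution with 15 degrees of freedom. Ratios were compared by exact permutation tests (scipy 1.17.1). Alternatives were RLE size factors, DESeq2 1.42.0, no filter, only the groups compared, a replicate block, the set of libraries as a covariate, only the 16 libraries of the higher share, and each library left out.

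The genes, lists and most tests were chosen with earlier results of these data known. Lists were built from recalled nomenclature, and a gene was named only where its symbol was found on the right chromosome in RefSeq's table of assembly ASM3414082v1 (45 of 60). At most 4 genes per list and comparison were named, by smallest p. The values of CDKA-1, of PCNA at NB day 4 and T65 day 12, and of KRP3 on day 4 were added after they had been seen. So were the levels of OSH71, WOX4, EL2, WEE1, KRP4 and KRP1 at T65 day 12. Sequences are not shown because the reference used here holds none.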

Additional observations from a re-analysis of the deposited data

Results flagged for a closer look

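The response to short days differed between the cultivars for 4 gene and day pairs, by the interaction term of the edgeR model. At day 4, 2 of 5 passed where 1.07% of genes were higher, and at day 12, 2 of 5 where 3.19% were lower. With only the groups compared in the model, 0 passed at day 4. The CYCB2-2 call at day 12 was lost without any 1 of the NB day 12 libraries, among others. The day 4 change of T65 minus that of NB was 0.67 for CYCB2-1 and 0.62 for CYCB2-2, whose NB libraries were all lower on day 4 than on day 0 while those of T65 overlapped. The day 12 change of T65 minus that of NB was -0.76 for CYCB1-1, which was lower in both T65 libraries and higher in all 3 NB libraries than in any day 0 library of the same cultivar. For CYCB2-2 it was -0.46, with both T65 libraries below and all 3 NB libraries above their day 0 libraries. The margin in T65 was very small, 92.96 CPM on day 12 against 93.26 CPM on day 0 in the nearest libraries. No group held 4 or more libraries, so no single library was tested for standing apart.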

How the results depend on the processing

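Counts of the 5 genes called, out of 5, are compared here with those of the report. They stayed the same with no filter. RLE size factors gave 2 for T65 day 12 against day 0. DESeq2 gave 1 for NB day 8 and 2 for T65 day 12 against day 0, 4 for T65 day 12 against day 8, 4 for the cultivar difference at day 4 and 3 for that at day 12. With only the groups of a comparison in the model, NB day 4 against day 0 gave 2, NB day 8 against day 4 gave 1, T65 day 12 against day 8 gave 1 and the cultivar difference at day 4 gave 0. With the set of libraries as a covariate, T65 day 12 against day 8 gave 0 and the cultivar difference at day 12 gave 1. The number of all genes called moved with the setting too. For T65 day 12 against day 8 it was 168 in the report, 20 with this covariate and 744 by DESeq2. For the cultivar difference at day 12 it was 1555, 794 and 2251. The 16 libraries of the higher share gave 4 for NB day 8 against day 4, and 0 for NB day 12 and T65 day 12 against day 0, for T65 day 12 against day 8, and for the cultivar differences at day 4 and day 12, with fewer samples. Leaving out 1 library in turn gave 0 to 1 for NB day 12 against day 0, 0 to 2 for T65 day 12 against day 0 and against day 8, 1 to 3 for the cultivar difference at day 4 and 1 to 2 for that at day 12. Same-numbered replicates were not treated as paired in the report. The r of their deviations was over 0.1 in 9 of 33 pairs, and reached 0.496 for replicate 3 of NB day 8 and day 12. Without differently numbered pairs to compare, these r cannot show whether replicates were paired. The fit with the replicate block gave 3 for the cultivar difference at day 4 and changed no other count. The log2 changes that turned sign were ones that passed under no setting (lowest adjusted p 0.457, edgeR or DESeq2). With the set of libraries as a covariate, CYCB2-2 was at 0.0038 for T65 day 8 against day 4. In the 16 libraries of the higher share, CYCB2-1 was at 0.0035 for NB day 12 against day 0, CYCB1-1 was at -0.0098, CYCB2-2 was at -0.027 and CDKB1 was at -0.018 for T65 day 4 against day 0 and CYCB2-2 was at -0.13 for T65 day 8 against day 0. There, too, CYCB2-2 was at -0.018 for NB day 12 against day 8, CDKB2 was at 0.12 for T65 day 8 against day 4, CDKB2 was at 0.20 for T65 minus NB in the day 8 change and CYCB1-1 was at 0.012 for T65 against NB over all days. Without 1 library in turn, the changes ran as follows. NB day 8 against day 0 gave CYCB2-1 from -0.11 to 0.019. NB day 12 against day 0 gave CYCB2-1 from -0.043 to 0.047. NB day 12 against day 8 gave CYCB2-1 from -0.0073 to 0.097 and CDKB2 from -0.035 to 0.024. T65 minus NB in the day 8 change gave CDKB2 from -0.097 to 0.080 and CYCB2-2 from -0.17 to 0.0015. T65 day 4 against day 0 gave CYCB1-1 from -0.036 to 0.086, CYCB2-2 from -0.043 to 0.12 and CDKB1 from -0.037 to 0.10. T65 day 8 against day 0 gave CYCB2-2 from -0.060 to 0.11 and CDKB1 from -0.018 to 0.12. T65 day 8 against day 4 gave CYCB2-1 from -0.020 to 0.11, CDKB1 from -0.039 to 0.080, CYCB2-2 from -0.059 to 0.050 and CDKB2 from -0.096 to 0.066. T65 against NB over all days gave CYCB1-1 from -0.046 to 0.0066. Each gene had at least 742 counts in every library, and the T65 day 12 group had 2 libraries, 1 of them the shallowest. The causes of these shifts were not tested.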
